A study of Mus musculus with 8 samples.

Results

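The genotype by R848 interaction asks, for each gene, whether KAT8-deficient macrophages respond to R848 differently from wild-type (WT) macrophages. It is the R848 response of KAT8-deficient cells minus the R848 response of WT cells, both on the log2 scale, and it uses all 8 of the 8 RNA-seq libraries. Each of 4 groups holds 2 libraries of mouse bone marrow-derived macrophages grown in M-CSF at 20 ng/ml. The groups are untreated WT, WT given R848 at 100 ng/ml for 6 h, untreated KAT8-deficient (labelled KAT8-cKO), and KAT8-deficient given the same R848 treatment. Of 34745 genes in the count table, 14040 had enough counts to be tested. The sources used here do not give the Cre driver, the age of the mice or the number of animals. Nothing in the labels says that replicate libraries came from separate mice or cultures, and p-values then measure the spread between these libraries alone, which may be technical.

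R848 (resiquimod) activates TLR7, which sits in endosomes and senses single-stranded RNA. TLR7 signals through MyD88 to NF-kB, MAP kinases and interferon regulatory factors. A macrophage then transcribes primary response genes, which need no new protein synthesis, and later secondary response genes, which do. KAT8 (MOF) is a histone acetyltransferase that acetylates histone H4 in the MSL and NSL complexes, and histone acetylation accompanies active transcription.

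A negative interaction means that the KAT8-deficient response lay below the WT response, and a positive one that it lay above. At an adjusted p of 0.05 (edgeR's quasi-likelihood test, Benjamini-Hochberg adjustment over all 14040 genes), 32 genes passed, 0.228% of those tested, 24 with a negative interaction (0.171%) and 8 with a positive one (0.057%). They include 6 chemokine genes, the costimulatory receptor gene Cd40 and the NF-kB regulator gene Nfkbiz, all with negative interactions, and Tmem164, Fbxo32 and Mgll, with positive ones. At an unadjusted p of 0.05 the interaction held for 1600 genes, 774 below and 826 above 0. An unadjusted p lets some genes pass by chance. Of the 1600, 1008 had a called WT response but neither a called KAT8-deficient response nor a called interaction. In all 1008 the KAT8-deficient response was closer to 0 or opposite, which choosing genes this way favours. The responses themselves were called for 1916 genes in WT cells (13.6%), 975 raised (6.94%) and 941 lowered (6.7%). In KAT8-deficient cells they were called for 89 genes (0.634%), 70 raised (0.499%) and 19 lowered (0.135%).

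Each gene was placed by which of its tests passed. A response was lost if it was called in WT cells, not called in KAT8-deficient cells, and the interaction was called. This held for 20 genes, 15 raised and 5 lowered in WT cells. A response was weakened if both genotypes were called in the same direction and the interaction showed a smaller KAT8-deficient response, which held for 9 genes, 8 raised and 1 lowered. It was reversed for 1 gene and gained, meaning called in KAT8-deficient cells only, for 2 genes. No gene had an enhanced response, neither at the adjusted threshold of edgeR's test nor at an unadjusted interaction p of 0.05, and 0 passed the interaction with neither response called, although 113 genes did so at unadjusted p-values. A response was kept, 68 genes, if both genotypes were called in the same direction and the interaction did not pass. The other 1818 genes called in WT cells, 94.9% of them, passed neither the KAT8-deficient test nor the interaction, so these libraries do not say whether their response was lost or kept.

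**Figure D1:**
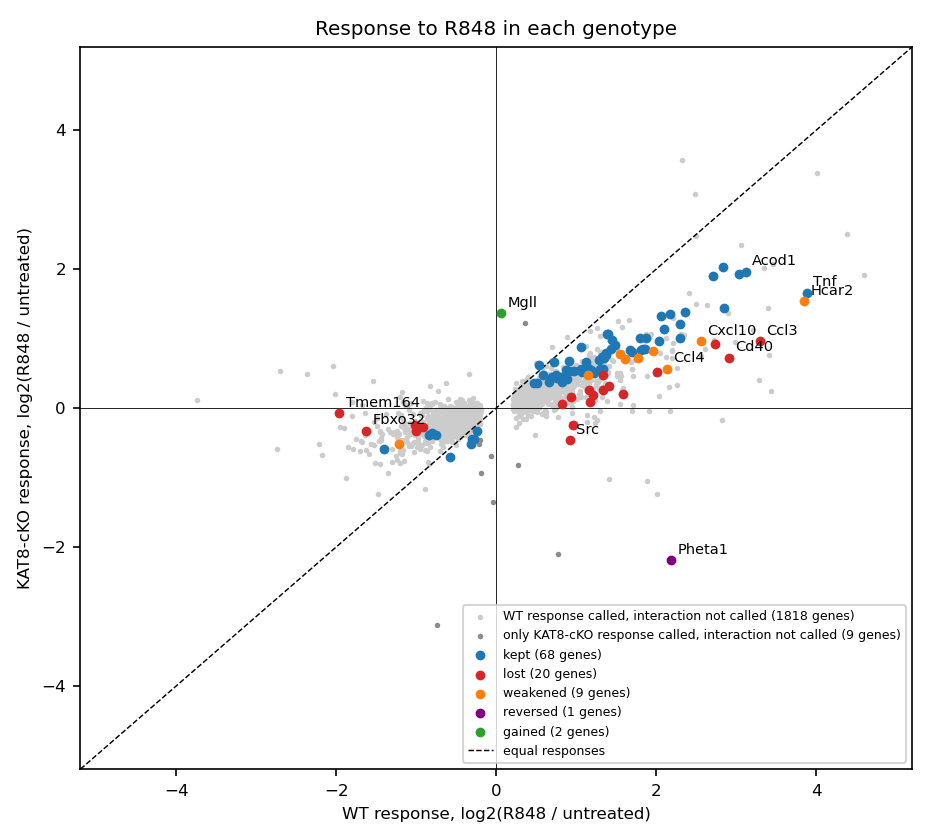
R848 response of KAT8-deficient cells (vertical axis) against that of WT cells (horizontal axis), both as log2(R848 / untreated), for 1924 of the 1927 genes with a call in either genotype or in the interaction; the other 3 lie outside the axes, Gm20716 among them. Points are genes coloured by response class, and the dashed line marks equal responses; most coloured points lie between that line and the horizontal axis, while Pheta1 lies in the opposite quadrant and Mgll above the origin.

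The count of 32 depends on single libraries and on the test. It was 6 without untreated KAT8-deficient replicate 1, and 11 without untreated KAT8-deficient replicate 2, without R848-treated WT replicate 1 or without R848-treated WT replicate 2. It was 19 without untreated WT replicate 2, 25 without untreated WT replicate 1, 40 without R848-treated KAT8-deficient replicate 1 and 208 without R848-treated KAT8-deficient replicate 2. It was 245 with no filter on low counts, 227 with DESeq2 and 27 with limma-voom. All 32 genes kept their direction in each of these fits, but only Tmem164, Pheta1, Mgll, Ccl4, Fbxo32 and Src passed whichever library was left out. The other 26 each lost the call without at least 1 library.

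Library totals lay between 18550977 and 21384532 counts, so 3 counts correspond to 0.14 to 0.163 CPM (counts scaled to a common library size). All CPM values below are normalised to TMM library sizes, and values for a group are given as replicate 1, then replicate 2. Kat8 read 17 and 17.9 CPM in untreated WT cells, 18 and 16 CPM in R848-treated WT cells, 8.76 and 10.8 CPM in untreated KAT8-deficient cells and 9.94 and 10.4 CPM in R848-treated KAT8-deficient cells. All 4 KAT8-deficient libraries lay below all 4 WT libraries. The Kat8 interaction was 0.09 ± 0.18 (SE) with an adjusted p of 0.895. The 20 macrophage identity genes summed to 17870 to 19310 CPM in WT and 11660 to 12880 CPM in KAT8-deficient libraries, and 14 stromal and endothelial markers to 2830 to 3913 CPM and 4162 to 4921 CPM. The 12 neutrophil markers summed to 50.75 to 76.65 CPM, and 18 dendritic, lymphoid and mast cell markers to 9.666 to 13.73 CPM, with 4 of the latter at 0 in every library. A sum follows its most abundant genes, so these sums do not show that each marker, or a list as a whole, differed between the genotypes. In bulk libraries fewer cells of a type and less RNA per cell cannot be told apart, and the part of these marker levels in the interaction was not tested.

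Among the genes whose response was lost, Tmem164, a multi-pass membrane protein gene on chromosome X (142681406 to 142843494, GRCm38), had the smallest adjusted p. It read 211 and 224 CPM in untreated WT cells and 54.7 and 56.9 CPM after R848, against 183 and 195 CPM untreated and 182 and 178 CPM after R848 in KAT8-deficient cells. The R848-treated WT libraries lay below the other 6, which spanned 178 to 224 CPM. The WT response was -1.96, the KAT8-deficient response -0.07, and the interaction 1.89 ± 0.09 (SE, adjusted p 0.000163). Fbxo32, which encodes the ubiquitin ligase subunit atrogin, read 111 and 110 CPM and then 36.4 and 35.2 CPM with R848 in WT cells, and 92.1 and 93.2 CPM and then 79.4 and 68.6 CPM in KAT8-deficient cells. Its R848-treated WT libraries again lay below all others, and its interaction was 1.30 ± 0.11 (adjusted p 0.00342).

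Xylt1 and Dhrs3 were also lowered by R848 in WT cells and lost that fall, with positive interactions. Xylt1, the xylosyltransferase that starts glycosaminoglycan chains on proteoglycans, read 132 and 140 CPM before and 64.6 and 70.4 CPM after R848 in WT cells, and 121 and 125 CPM before and 104 and 104 CPM after in KAT8-deficient cells. Treated libraries lay below untreated ones in both genotypes without overlap. Xylt1 had responses of -1.01 in WT and -0.25 in KAT8-deficient cells, and an interaction of 0.77 ± 0.09 (adjusted p 0.0252). Dhrs3, a retinal reductase, had -0.91 and -0.28 and an interaction of 0.63 ± 0.08 (adjusted p 0.0281), the smallest called interaction.

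Src, a membrane-bound tyrosine kinase, was the lost gene whose KAT8-deficient values went furthest the other way. It read 37.7 and 43 CPM untreated and 72.2 and 80.4 CPM after R848 in WT cells, and 66.2 and 68.4 CPM untreated and 47 and 50.6 CPM after R848 in KAT8-deficient cells. The groups did not overlap within either genotype, and the order of the treatments was opposite. The WT rise of 0.92 passed, the KAT8-deficient value of -0.46 did not (adjusted p 0.0648), and the interaction was -1.38 ± 0.13 (adjusted p 0.00544). Inhba, the activin A subunit, had a similar pattern, with a WT response of 0.96, a KAT8-deficient value of -0.24 and an interaction of -1.20 ± 0.16 (adjusted p 0.0362).

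Ccl3 and Cd40 had the largest WT rises among the lost genes. Ccl3, a chemokine that attracts monocytes and T cells, read 20.4 and 25.1 CPM in untreated WT cells and 224 and 222 CPM after R848. In KAT8-deficient cells it read 22 and 19.5 CPM untreated and 30.3 and 50.7 CPM after R848. The untreated groups were alike in level, and both R848-treated KAT8-deficient libraries lay far below the WT ones. The KAT8-deficient response of Ccl3, 0.97, did not pass (adjusted p 0.0993), and the interaction was -2.33 ± 0.29 (adjusted p 0.0278). That response is larger than the 0.57 of the weakened gene Ccl4, which passed (adjusted p 0.0413). A lost call thus does not mean a smaller response than a weakened one. Cd40, the receptor through which T cells activate macrophages, read 2 and 2.5 CPM and then 17.4 and 16.4 CPM with R848 in WT cells, and 3.67 and 3.58 CPM and then 4.76 and 7.26 CPM in KAT8-deficient cells, with an interaction of -2.18 ± 0.30 (adjusted p 0.0362). The KAT8-deficient response of Cd40, 0.73, did not pass either (adjusted p 0.191). For both genes R848-treated KAT8-deficient replicate 2 was well above replicate 1.

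Nfkbiz encodes IkB-zeta, a nuclear IkB protein that NF-kB induces and that many secondary response genes require. It read 22.7 and 22.4 CPM untreated and 89.2 and 92.2 CPM after R848 in WT cells, and 27.6 and 30.7 CPM untreated and 35.2 and 48.4 CPM after R848 in KAT8-deficient cells. The KAT8-deficient groups did not overlap, yet that response of 0.52 did not pass (adjusted p 0.149), and the interaction was -1.48 ± 0.19 (adjusted p 0.0286). Socs3, the feedback inhibitor of cytokine receptor JAK-STAT signalling, rose by 1.58 in WT cells against 0.21 in KAT8-deficient cells, where untreated and R848-treated libraries overlapped, and its interaction was -1.38 ± 0.20 (adjusted p 0.0428). Cebpd, an inducible C/EBP transcription factor, had responses of 1.18 and 0.09 and an interaction of -1.09 ± 0.14 (adjusted p 0.0295). Its treated and untreated KAT8-deficient libraries also overlapped, at 22 and 23 CPM and 22.5 and 19.7 CPM.

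The remaining lost genes had WT rises from 0.83 (Prdx5) to 2.74 (Ifi205). Ifi205, a member of the interferon-inducible AIM-like receptor cluster on chromosome 1, had an interaction of -1.82 ± 0.27 and the largest adjusted p among the called genes, 0.0487. Its close paralogues could share its reads, so its value is uncertain. F10, coagulation factor X, read 74.9 and 79 CPM untreated and 201 and 188 CPM after R848 in WT cells, against 65.1 and 63.9 CPM and then 70.9 and 84.1 CPM in KAT8-deficient cells, an interaction of -1.07 ± 0.12 (adjusted p 0.0212). Plek, the protein kinase C substrate pleckstrin, had the most counts of the 32 genes. It went from 409 and 367 CPM to 903 and 839 CPM in WT cells and from 404 and 410 CPM to 462 and 515 CPM in KAT8-deficient cells, an interaction of -0.90 ± 0.11 (adjusted p 0.0252). The other lost genes had interactions of -1.09 for Fabp3, a fatty acid-binding protein, -1.02 for Marcksl1, an actin-linked MARCKS family protein, -0.87 for Slfn2, a schlafen protein, -0.78 for Fam102b and -0.77 for Prdx5, a mitochondrial peroxiredoxin. Cebpd, Plek, Fabp3, Prdx5 and the weakened gene Daglb overlap a tested gene on the opposite strand (Spidr, Cnrip1, Zcchc17, Trmt112 and Rac1). Without a stated strand setting their reads cannot be told apart, and none of these 5 partners had a called interaction. Fam102b, Prdx5, Vasp and Gm20716 fell outside the naming rule and were named after their values were seen.

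**Figure D2:**
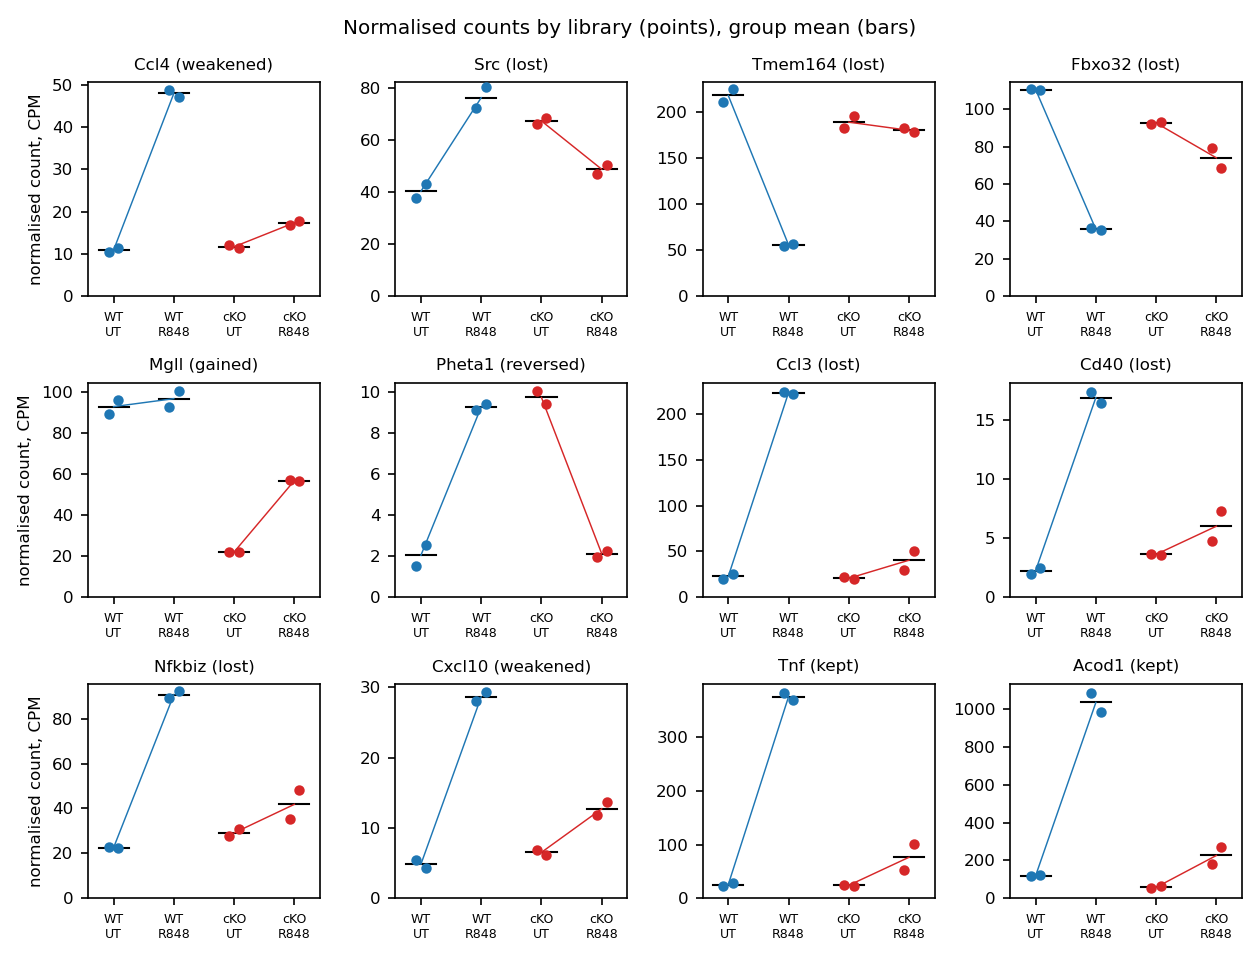
Normalised count in CPM (vertical axes from 0) of 12 genes in each of the 8 libraries, for untreated (UT) and R848-treated WT and KAT8-deficient (cKO) cells; points are libraries, bars group means, and lines join the means within a genotype. Tmem164 and Fbxo32 are low in R848-treated WT cells, Src and Pheta1 move in opposite directions in the genotypes, and Ccl3, Cd40 and Tnf rise far less in KAT8-deficient cells.

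Of the 9 weakened responses, 5 were those of chemokine genes. Chemokines are secreted proteins that bind G protein-coupled receptors and direct leukocyte migration, and 20 of the 25 listed were tested. In this list 12 were called higher in WT cells and 6 in KAT8-deficient cells, and 6 had a negative interaction, 5 weakened and Ccl3 lost. Over all genes tested the shares were 6.94%, 0.499% and 0.171%. The list was chosen with earlier results of these data known, and its median responses were 1.11 (WT) and 0.64 (KAT8-deficient), with a median interaction of -0.52, against 0.01 over all genes tested. Ccl4, a chemokine that attracts monocytes and T cells, read 10.5 and 11.3 CPM and then 48.8 and 47 CPM with R848 in WT cells, and 12 and 11.4 CPM and then 16.9 and 17.8 CPM in KAT8-deficient cells. Replicates of Ccl4 lay close together in all 4 groups, the groups within each genotype did not overlap, and its interaction was -1.57 ± 0.13 (adjusted p 0.00342).

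Cxcl10, which recruits T cells through CXCR3 and is induced by interferons, read 5.4 and 4.29 CPM and then 28 and 29.3 CPM with R848 in WT cells, and 6.88 and 6.21 CPM and then 11.8 and 13.6 CPM in KAT8-deficient cells, an interaction of -1.60 ± 0.20 (adjusted p 0.0252). Ccl2 and Ccl7, ligands of the monocyte receptor CCR2, had interactions of -1.13 ± 0.15 and -1.06 ± 0.14 (both adjusted p 0.0295). In both, R848-treated KAT8-deficient libraries lay above every untreated library and below the R848-treated WT ones, at 126 and 155 CPM for Ccl2 against 263 and 238 CPM. Ccl9, a ligand of CCR1, had a KAT8-deficient response of 0.78 against 1.55 in WT cells, the largest share of the WT response among the weakened genes at 0.502, and an interaction of -0.77 ± 0.10 (adjusted p 0.0278).

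For 21 of the 32 called genes RefSeq (GRCm38.p6) holds a start-site entry. The 250 bases upstream of Cxcl10 and Ccl9, both on the minus strand, are shown because they are weakened chemokine promoters that hold more than 1 searched motif, at chr5:92348890-92349139 and chr11:83578637-83578886. Capitals mark motif matches, read 5′ to 3′ on the gene's strand.
Cxcl10: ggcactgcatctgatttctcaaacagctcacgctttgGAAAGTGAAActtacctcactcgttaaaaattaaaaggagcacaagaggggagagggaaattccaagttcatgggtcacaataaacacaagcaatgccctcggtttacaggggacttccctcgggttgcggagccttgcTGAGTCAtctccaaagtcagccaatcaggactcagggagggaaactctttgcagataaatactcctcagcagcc
Ccl9: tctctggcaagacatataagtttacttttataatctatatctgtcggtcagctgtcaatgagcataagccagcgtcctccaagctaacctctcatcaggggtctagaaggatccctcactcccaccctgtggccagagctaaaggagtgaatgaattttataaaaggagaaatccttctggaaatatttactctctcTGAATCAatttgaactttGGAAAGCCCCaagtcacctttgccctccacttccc

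In Cxcl10 the capitals are an ISRE core (GAAA, a pair of any bases, GAAA), the element bound by interferon regulatory factors, starting 213 bases upstream, and an AP-1 element (TGANTCA) starting 74 bases upstream. In Ccl9 they are an AP-1 element starting 53 bases upstream and, on the opposite strand, a kB element (GGG, a pair of any bases, TTTCC) starting 35 bases upstream. Both strands were searched, and no match in a window overlapped another. Among 15 windows of lost or weakened genes that rose in WT cells, 1 held a kB match (6.67%), 2 an ISRE core (13.3%), 2 an AP-1 element (13.3%) and 1 a GAS element (TTCNNNGAA, 6.67%). Among 13475 windows of all tested genes the shares were 1.51%, 2.79%, 4.72% and 6.0%, and among 62 windows of kept genes that rose they were 11.3%, 6.45%, 12.9% and 6.45%. A match describes the letters only. Only these fixed patterns were searched, and sequences close to the kB pattern, such as gggaaattcc and gggacttccc in the Cxcl10 window, were not counted. A window without a match may thus still hold a binding site, and the kB shares apply to this pattern alone.

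On chromosome 11, 8 tested Ccl genes lie near each other. Ccl2 (82035571 to 82037453) and Ccl7 (82045712 to 82047525) were weakened, while Ccl8 at 82115185 to 82116799 had an interaction of -0.01, with no call in either genotype. Further along, Ccl9 (83572919 to 83578636), Ccl3 (83647844 to 83649355) and Ccl4 (83662584 to 83664683) were called, while Ccl6 at 83587882 to 83593087, which lies between Ccl9 and Ccl3, had 0.07, with no call in either genotype. Ccl5, at 83525778 to 83530518, rose by 0.87 in WT cells and its interaction of -0.37 ± 0.22 did not pass (adjusted p 0.574). The 5 called genes are those of the 8 with WT responses over 1, which ranged from 1.55 to 3.30.

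Outside the chemokines, Hcar2, the niacin and hydroxybutyrate receptor, read 1.35 and 1.47 CPM and then 20.5 and 20.3 CPM with R848 in WT cells, and 1.36 and 2.03 CPM and then 4.1 and 5.8 CPM in KAT8-deficient cells, an interaction of -2.31 ± 0.34 (adjusted p 0.0428). Vcam1, an adhesion molecule for integrins on leukocytes, had responses of 1.62 and 0.70, and Vasp, which promotes actin filament growth, 1.15 and 0.48. Vcam1 was already higher in untreated KAT8-deficient than untreated WT cells, by 0.44 (adjusted p 0.0419), and its interaction of -0.91 ± 0.13 had an adjusted p of 0.0446.

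Daglb and Mgll encode enzymes at either end of one lipid pathway. Diacylglycerol lipase beta (Daglb) makes monoacylglycerols, among them an endocannabinoid, and monoacylglycerol lipase (Mgll) hydrolyses them to free fatty acids. Daglb fell in both genotypes, from 275 and 303 CPM to 121 and 127 CPM in WT cells and from 305 and 294 CPM to 217 and 202 CPM in KAT8-deficient cells, an interaction of 0.70 ± 0.10 (adjusted p 0.0373). Mgll was at 89.6 and 96.5 CPM untreated and 93 and 101 CPM after R848 in WT cells. It was at 22.3 and 21.9 CPM untreated and 57.2 and 56.7 CPM after R848 in KAT8-deficient cells. The WT groups overlapped, the KAT8-deficient groups were apart, and all KAT8-deficient values lay below all WT values. The KAT8-deficient response was 1.36 ± 0.07 (adjusted p 0.000464) and the interaction 1.31 ± 0.10 (adjusted p 0.00291). The gained response of Mgll thus moved the KAT8-deficient level toward the WT level, from a genotype difference of -2.07 untreated to -0.77 after R848.

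Pheta1, which encodes an adaptor protein of endosomal trafficking, was the only gene called in opposite directions in the genotypes. It read 1.54 and 2.55 CPM untreated and 9.12 and 9.39 CPM after R848 in WT cells, and 10 and 9.41 CPM untreated and 1.98 and 2.26 CPM after R848 in KAT8-deficient cells. The untreated WT and treated KAT8-deficient libraries were low, and the other 4 were high at nearly one level. Some uncalled genes, such as Zbtb20 and Xiap described below, also sat at separate levels, but between replicates of a group. Whether the levels of Pheta1 have the same source was not tested. The responses were 2.19 (adjusted p 0.000311) and -2.19 (adjusted p 0.00861), and the interaction was -4.38 ± 0.29 (adjusted p 0.00137). The second gained gene, the predicted gene Gm20716, had 0 counts in both untreated KAT8-deficient libraries and 11.3 to 22.3 CPM in the other 6. Its annotated span (chromosome 2, 168180986 to 168230364) covers Adnp and Dpm1 on the same strand, so how reads were shared among the 3 models is uncertain. Dpm1 read 22.3 and 23.3 CPM in the untreated KAT8-deficient libraries and 9.37 to 15.3 CPM in the other 6.

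The interaction is also the genotype difference under R848 minus the genotype difference in untreated cells. A genotype difference was called in 600 genes untreated (4.27%) and in 1911 genes under R848 (13.6%), with KAT8-deficient cells higher in 1143 (8.14%) and lower in 768 (5.47%). Of the 29 lost or weakened genes, all 29 differed between genotypes under R848 and 3 (Cebpd, Src and Vcam1) differed untreated, and these differences share libraries with the interaction. All 23 that rose in WT cells were lower in KAT8-deficient cells under R848, and all 6 that fell in WT cells were higher. In 28 of the 29 the difference under R848 was the larger, the exception being Src, higher by 0.74 untreated and lower by 0.64 under R848 in KAT8-deficient cells. The 29 were chosen by an interaction against the WT response, which favours these directions under R848. No share over other genes is given, so these counts are not separate support for a difference that arises under R848. For 17 of the 23 genes that rose, the untreated KAT8-deficient level was above the WT level by point estimate, a difference that was called for 3 of them. Choosing genes by a negative interaction favours such values, because the untreated difference enters it with a minus sign. The share over all genes is not given, so the 17 is not a trait of these genes. Libraries of R848-treated KAT8-deficient cells lay apart from untreated ones in 17 of the 20 lost genes and in 46.8% of all genes tested, so a lost call does not mean that no change was visible.

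**Figure D3:**
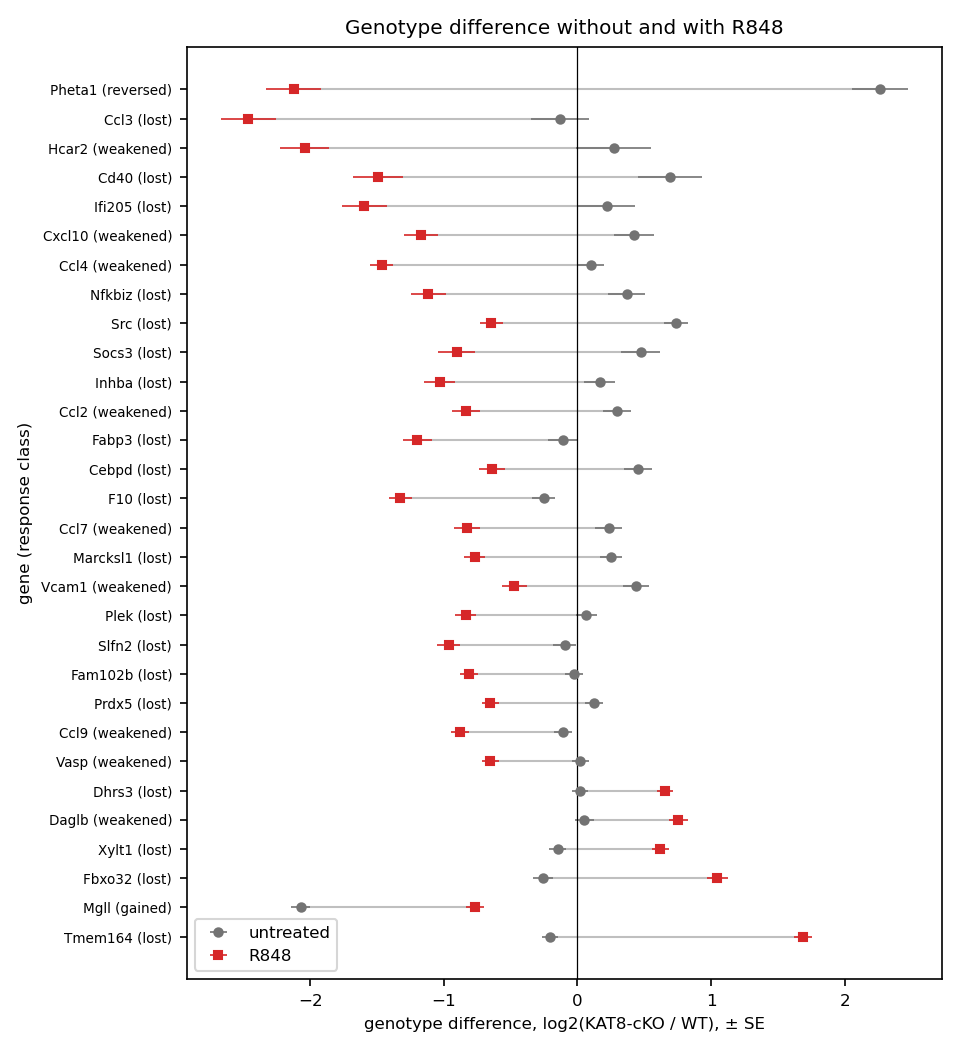
Genotype difference, log2(KAT8-cKO / WT) with its standard error as bars, in untreated (grey circles) and R848-treated (red squares) cells for 30 of the 32 genes with a called interaction. Gm20716, whose untreated KAT8-deficient libraries are at 0, is not drawn. The untreated points of most genes lie near 0 while the R848 points lie away from it, and Pheta1 and Mgll have the largest untreated differences among the genes drawn. Choosing genes by the interaction favours a gap between the points of a gene.

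A kept response, in the sense used here, is one for which the interaction did not pass, and it does not show equal responses. Of the 68 kept genes, 59 rose and 9 fell in WT cells. The KAT8-deficient response was the smaller in 62 of them, its median share of the WT response was 0.561, and the interaction had an unadjusted p under 0.05 in 54. The 95% interval of the interaction lay within 1 of 0 on the log2 scale for 43 and included 0 for 14. The class also depends on the test: 39 of the 68 were still kept with no filter on low counts and 37 with DESeq2, and 29 and 31 were then weakened. Among the genes named below, Tnf, Acod1, Clec4e, Tlr2, Gbp5 and Gpr84 passed the interaction in both of these fits, while H2-M2, Fpr1, Adora2a, Nfkbie and Gsap passed in neither.

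Tnf, the inflammatory cytokine, shows how wide the kept class is. It read 22.8 and 28.1 CPM and then 381 and 368 CPM with R848 in WT cells, and 24.6 and 23.6 CPM and then 51.8 and 101 CPM in KAT8-deficient cells. Both responses passed, at 3.88 and 1.66, and the interaction of -2.22 ± 0.36, a value between those of Cd40 and Hcar2, did not (adjusted p 0.0575). The R848-treated KAT8-deficient replicates of Tnf were almost 1 log2 unit apart, and the interaction passed without either of them. It also passed with no filter on low counts and with DESeq2.

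Acod1, the enzyme that makes itaconate, and Clec4e (Mincle), a receptor for mycobacterial glycolipid, had the most counts among the kept genes with the largest responses. Acod1 went from 118 and 121 CPM to 1083 and 985 CPM in WT cells and from 52.3 and 63.6 CPM to 181 and 271 CPM in KAT8-deficient cells. Here the KAT8-deficient levels were lower in both states, the responses were 3.12 and 1.97, and the interaction was -1.15 ± 0.24 (adjusted p 0.089). Clec4e had responses of 3.04 and 1.93 and an interaction of -1.11 (adjusted p 0.102). H2-M2, an MHC class I-like gene, and Fpr1, the formyl peptide receptor, had larger shares of the WT response, 0.719 and 0.703, and interactions of -0.79 (adjusted p 0.342) and -0.81 (adjusted p 0.359). Gsap read 71.4 and 66.3 CPM and then 168 and 196 CPM with R848 in WT cells, and 48.5 and 55.5 CPM and then 98.6 and 120 CPM in KAT8-deficient cells. Its interaction of -0.33 had a 95% interval from -0.70 to 0.04.

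Other kept rises included Tlr2, the lipopeptide receptor (interaction -0.98, adjusted p 0.0913), Gbp5, an interferon-inducible GTPase (-1.40, adjusted p 0.116), Gpr84, a fatty acid receptor (-1.09, adjusted p 0.0833), Adora2a, an adenosine receptor (-0.81, adjusted p 0.356), and the NF-kB inhibitor Nfkbie (-0.73, adjusted p 0.342). Among kept genes that fell, the contractile genes Acta2 and Tagln, markers of stromal cells, fell by 0.30 and 0.31 in WT cells and by 0.44 and 0.52 in KAT8-deficient cells. They are among the 6 kept genes in which the KAT8-deficient response was the larger, whether a rise or a fall. The others were Cnn2, Mmp2, Thbs1 and Kcnj2, which were named after their values were seen. Of these, Kcnj2 rose in both genotypes. Of the 13 stromal and endothelial markers tested, only 3 had an interaction below 0, Acta2 and Tagln among them, and the median interaction was 0.208. Acta2 and Tagln thus do not stand for that list. The stromal and endothelial markers summed to 2830 and 3038 CPM in R848-treated WT cells and 3375 and 3913 CPM in untreated WT cells, and to 4247 and 4162 CPM and 4921 and 4685 CPM in KAT8-deficient cells.

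The threshold fell within a run of similar genes. Just inside it were Vcam1 and Ifi205, and just outside were Gpr157, an orphan G protein-coupled receptor (interaction 0.91, adjusted p 0.0507), and Tmem154 (0.72, adjusted p 0.0512). Gpr157 and Tmem154 passed with no filter on low counts and with DESeq2. Both had WT falls, -1.27 and -0.91, and KAT8-deficient values of -0.37 and -0.20 that did not pass.

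Across all 354 genes that R848 changed in WT cells by at least 1 log2 unit, the median share of the WT response seen in KAT8-deficient cells was 0.379. Genes picked for a large WT response lean toward a low share, and the share was 0.525 over 161 genes picked on the mean response of both genotypes. It was 0.551 over the 89 genes called in KAT8-deficient cells, a choice that leans toward a high share. Of the 1916 genes called in WT cells, 1776 had the same sign in KAT8-deficient cells and 1885 had a response of smaller absolute size there. For genes that rose, the median share was 0.403, 0.405, 0.42 and 0.431 with increasing size of the WT response, in 429, 305, 177 and 64 genes. For genes that fell it was 0.343, 0.352 and 0.292 in 440, 388 and 105 genes, and -0.065 in the 8 genes that fell by 2 or more. For rises the median share thus differed little between small and large WT responses. The interaction was called in 0 of 429 rises under 0.5, 4 of 305, 12 of 177 and 8 of 64.

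**Figure D4:**
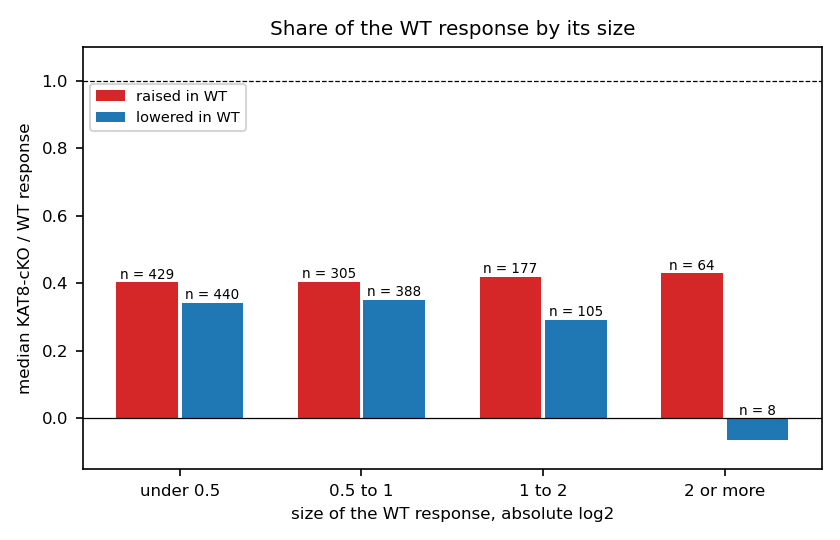
Median ratio of the KAT8-deficient to the WT response, both log2, for genes called in WT cells, split by the absolute size of the WT response (horizontal axis) and by direction (red raised, blue lowered), with the number of genes above each bar. The dashed line marks equal responses, all raised bars lie between 0.403 and 0.431, and the bar below 0 rests on 8 genes.

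R848-treated KAT8-deficient replicate 2 carried a stronger response than replicate 1. Of the 241 genes that rose by at least 1 in WT cells, it was the higher in 206, with a median log2 ratio of 0.305, while in R848-treated WT cells replicate 2 was the higher in 90 with a median of -0.052. Over all genes tested the numbers were 7241 and 6997 of 14040. Replicate 2 was the higher in 12 of the 15 lost and all 8 weakened genes that rose. Without it the share of the WT response was 0.297, and without replicate 1 it was 0.478.

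The gene lists place these genes among their pathways. They too were chosen with earlier results known, and the counts are calls over all genes. Among all genes tested, 6.94% rose in WT cells, 0.499% rose in KAT8-deficient cells and 0.171% had a negative interaction. Of 36 NF-kB subunits and feedback genes tested, 31 rose in WT cells and 8 in KAT8-deficient cells, and Nfkbiz had the 1 called interaction. Interactions lay below 0 in 33 of the 36, against 49% of all genes. But of all 975 genes that rose in WT cells, 959 had a smaller absolute response in KAT8-deficient cells. The 33 is thus not particular to this list. The subunit genes Nfkb1, Nfkb2, Rel, Rela and Relb had WT responses of 1.21, 1.11, 0.65, 0.59 and 1.21 and KAT8-deficient values of 0.49, 0.57, 0.27, 0.12 and 0.64, none of which passed. Nfkbia, the main IkB protein, read 79.8 and 82.1 CPM and then 267 and 271 CPM in WT cells, and 79.4 and 71.3 CPM and then 98.9 and 145 CPM in KAT8-deficient cells, an interaction of -1.04 (adjusted p 0.0833).

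Of 24 primary response genes tested, 16 rose in WT cells, 5 in KAT8-deficient cells and 3 (Ccl3, Ccl4 and Nfkbiz) had a negative interaction, with medians of 1.62, 0.52 and -0.88 for the WT response, the KAT8-deficient response and the interaction. Of 23 secondary response genes the numbers were 18, 2 and 1, with medians of 1.09, 0.47 and -0.40. The difference between these lists was not tested. Of 49 type I interferon-stimulated genes, 23 rose in WT cells and 2 in KAT8-deficient cells, and 2 had a negative interaction. Isg15, an antiviral ubiquitin-like protein, read 9.41 and 8.2 CPM and then 17.7 and 15.3 CPM in WT cells, and 8.4 and 7.38 CPM and then 9.33 and 7.5 CPM in KAT8-deficient cells, and its interaction of -0.81 ± 0.21 did not pass (adjusted p 0.171). Of 27 interferon gamma-type genes, 17 rose in WT cells and 2 in KAT8-deficient cells, with 2 negative interactions.

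Lists without a called interaction and with median interactions within 0.1 of 0 included the 25 tested genes of TLR7 signalling (median 0.05), the 11 of the MHC class II pathway (0.02), 13 KAT8 complex subunits (0.00) and 36 cell cycle genes (0.00). Tlr7 itself read 30.2 and 33.9 CPM, 84.6 and 35.2 CPM, 33.1 and 77.9 CPM, and 29.6 and 69.1 CPM in the groups as ordered above, so its replicates were more than 1 log2 unit apart in 3 groups and its interaction of -1.07 ± 0.74 (adjusted p 0.651) is not informative. All 13 mitochondrially encoded genes had interactions above 0, while 49% of all genes tested lay below 0, and none of the 13 was called. Their median of 0.12 was smaller than the median interaction SE of 0.168 over all genes. The 27 NRF2 antioxidant genes had a median of -0.31, with 14 called higher in WT cells and 1 in KAT8-deficient cells. Over all genes tested, 6.94% and 0.499% were called higher.

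**Figure D5:**
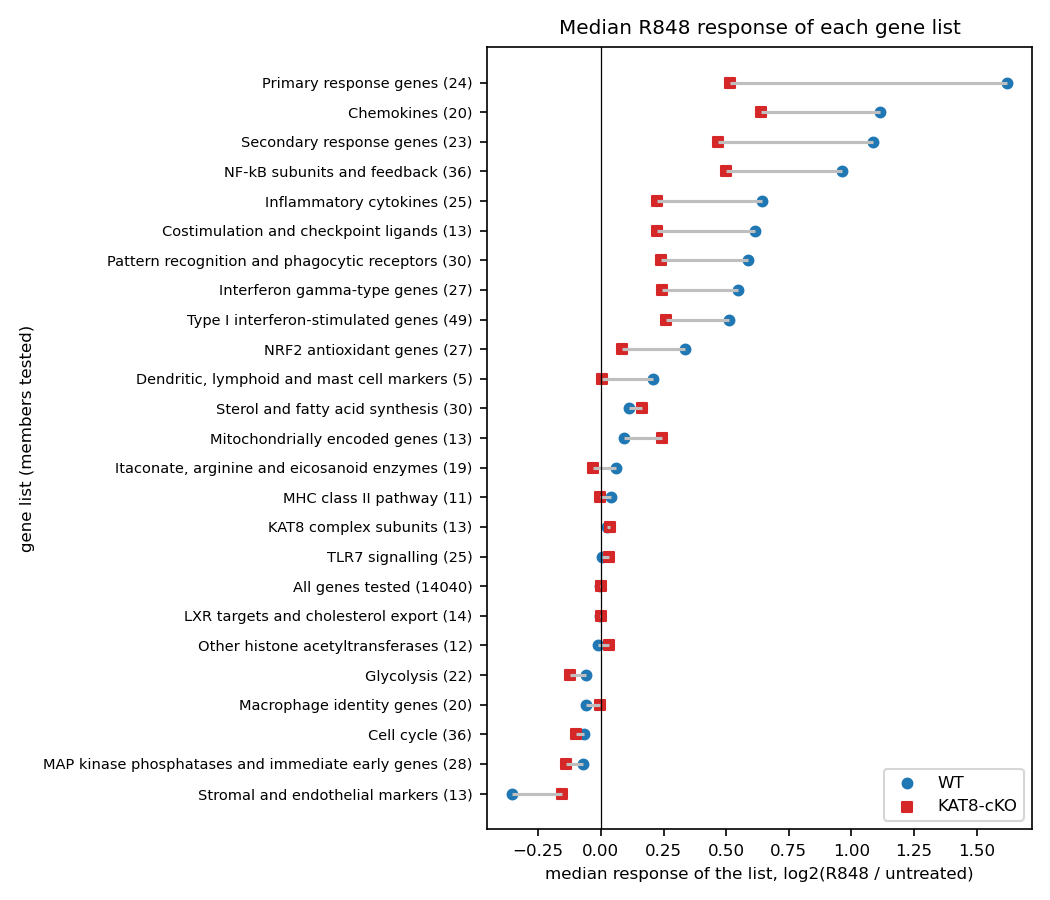
Median R848 response, log2(R848 / untreated), of each gene list with at least 5 members tested in WT (blue circles) and KAT8-deficient cells (red squares), with the number of members tested in brackets. Inflammatory lists at the top have a WT median above the KAT8-deficient one, primary response genes with 1.62 against 0.52, and the TLR7 signalling, MHC class II and KAT8 complex lists lie near 0 in both.

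Several cytokines often followed in R848-treated macrophages gave no called interaction. Il6 stayed between 0.66 and 1.74 CPM in all libraries and Ifnb1 had too few counts to be tested. Il12b read 11.4 and 7.86 CPM in R848-treated WT cells and 0.33 and 0.896 CPM in R848-treated KAT8-deficient cells, but its untreated levels were between 0 and 1.25 CPM and its interaction of -0.63 ± 3.24 is not informative. Il10, the anti-inflammatory cytokine, fell from 3.54 and 3.2 CPM to 1.28 and 0.919 CPM in WT cells and read 4.46 and 4.01 CPM and then 3.58 and 3.02 CPM in KAT8-deficient cells, an interaction of 1.26 ± 0.31 (adjusted p 0.141). Ptgs2, the inducible cyclooxygenase, read 20.4 and 24.7 CPM and then 52.1 and 47.1 CPM in WT cells, and 32.8 and 33.3 CPM and then 22.9 and 34.9 CPM in KAT8-deficient cells, an interaction of -1.33 ± 0.25 (adjusted p 0.0713), which passed with no filter on low counts and with DESeq2. Nos2, inducible nitric oxide synthase, had 0 counts in both untreated KAT8-deficient libraries, 0.236 and 0.283 CPM after R848, and 2.93 and 2.25 CPM in R848-treated WT cells.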

How the data were processed

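Polyadenylated RNA of 8 macrophage libraries was sequenced, and the authors deposited whole-number read counts per Ensembl gene, per the file headers. The submitters' processing notes name HISAT2, StringTie 1.3.0, edgeR and mm10 without their roles; no source used here gives the annotation, counting or strand settings. Symbols and positions are from GENCODE M21 (GRCm38, the same build).

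Genes passing filterByExpr were fitted over all 8 libraries with edgeR 4.0.16 (TMM, quasi-likelihood F test, trended dispersion, 4 group means, 4 residual degrees of freedom, common biological coefficient of variation 0.0956), two-sided, Benjamini-Hochberg threshold 0.05. Tested genes held 99.95% of counts. Standard errors are the absolute log2 value over the square root of F. The median interaction SE was 0.168, and the smallest called interaction was 0.635. Floors of 3 counts cover counting error only. The group means share libraries across comparisons, and permuting 2 against 2 libraries cannot reach 0.05.

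Named genes had at least 5 CPM in a group mean and no predicted name: the 12 raised and 8 lowered lost genes and 8 per other called class with the largest interaction, the 12 kept genes with the largest smaller response, up to 4 per list, 11 genes always given (such as Tnf and Il6), and genes at the threshold. Response classes, the 25 lists and the rule were chosen with earlier results of these data known. Alternatives were DESeq2 size factors, no filter, a 5 CPM filter, DESeq2 1.42.0, limma-voom 3.58.1, a replicate block and leaving out each library. A called gene that meets the rule is not reported here.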

Additional observations from a re-analysis of the deposited data

Results flagged for a closer look

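The response to R848 differed between the genotypes in 32 genes by the interaction test of edgeR, which is a test of the difference itself. The interaction, as log2 of the KAT8-deficient response over the WT response, was below 0 for Pheta1 (-4.38), Ccl3 (-2.33), Hcar2 (-2.31), Cd40 (-2.18), Ifi205 (-1.82), Cxcl10 (-1.60), Ccl4 (-1.57), Nfkbiz (-1.48), Src (-1.38), Socs3 (-1.38), Inhba (-1.20), Ccl2 (-1.13), Fabp3 (-1.09), Cebpd (-1.09), F10 (-1.07), Ccl7 (-1.06), Marcksl1 (-1.02), Vcam1 (-0.91), Plek (-0.90), Slfn2 (-0.87), Fam102b (-0.78), Prdx5 (-0.77), Ccl9 (-0.77) and Vasp (-0.67). It was above 0 for genes including Tmem164 (1.89), Mgll (1.31), Fbxo32 (1.30), Xylt1 (0.77), Daglb (0.70) and Dhrs3 (0.63). For Gm20716 the fitted interaction was 11.47, a value that depends on the prior count because both untreated KAT8-deficient libraries had 0 counts.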

How the results depend on the processing

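Of the 32 called genes, 20 passed under all 6 processing alternatives and 6 whichever library was left out, and all 32 had the same direction in every fit. Without a filter on low counts 245 genes were called (99 higher, 146 lower), with 146 lost, 80 weakened, 5 reversed, 9 gained, 5 with a difference only and 145 kept. With DESeq2 there were 227 (75 higher, 152 lower), with 130 lost, 84 weakened, 3 reversed, 8 gained, 2 with a difference only and 114 kept. Of the 20 lost genes 14 stayed lost in each of these fits, and of the 68 kept genes 39 and 37 stayed kept. Limma-voom left 1 gained gene. Same-numbered libraries showed no shared deviation, with correlations of the replicate differences between groups from -0.062 to 0.054 over 10555 genes. This cannot exclude that same-numbered libraries share a mouse, culture or batch, which the labels do not give. With the replicate block 25 genes were called, 23 of them shared with the fit without it, with 5 weakened and 2 reversed. The cause of these changes was not tested. The median share of the WT response was 0.525 over genes chosen on the mean response. It was 0.551 over genes called in KAT8-deficient cells, a choice that leans toward a high share.

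Leaving out each library in turn gave 6 to 208 called genes (3 to 67 higher, 3 to 141 lower), 5 to 176 lost, 0 to 16 weakened, 0 to 2 enhanced, 0 to 3 reversed, 1 to 11 gained, 0 to 3 with a difference only, 0 to 137 kept and 835 to 1650 undecided WT responses, and a share of 0.297 to 0.478. The lone library of a group is then assumed to vary like the other groups. The uncalled interaction of Il6 ran from -0.79 to 0.44 over these fits, above 0 at 0.23 without untreated WT replicate 1, 0.04 without R848-treated WT replicate 1 and 0.44 without R848-treated KAT8-deficient replicate 1. That of Il12b ran from -7.2 to 0.46, above 0 without untreated WT replicate 1, and that of Kat8 from -0.04, without untreated KAT8-deficient replicate 1, to 0.25.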

Other observations

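Some genes outside the called set had replicates at separate levels within a group. Among 10555 tested genes with a mean of at least 5 CPM, 158 had replicates at least 2-fold apart in at least 1 group and 58 in at least 2 groups. None of the 32 called genes did, but a called interaction favours close replicates and such gaps are rare among all genes. The comparison therefore says nothing about the called set. Zbtb20, a transcriptional repressor, read 2.56 and 35.2 CPM in untreated WT, 3.63 and 35.6 CPM in R848-treated WT, 44 and 43.9 CPM in untreated KAT8-deficient and 44.7 and 2.45 CPM in R848-treated KAT8-deficient libraries. Xiap, an inhibitor of apoptosis, read 30.2 and 25.9 CPM, 90.6 and 29.8 CPM, 81.1 and 23.8 CPM, and 93.3 and 26.9 CPM in the same order. Both were named after their values were seen, and no interaction was called for either.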
